A study of Mus musculus with 12 samples.

Results

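The comparison described here sets the male mouse embryonic stem cell (mESC) line 3B3-3l against the male wild-type line J1 when both were grown in 2i medium. It rests on the 3 libraries of 3B3-3l and the 3 libraries of J1 whose sample labels give 2i with LIF, which are 6 of the 12 libraries in the series. The other 6 hold the same lines in serum with LIF at 500 U/ml and are used only where a difference in 2i is set beside the difference in serum. The study describes J1 as wild type. 3B3-3l carries Dnmt3a-/- and Dnmt3b-/- alleles, a Dnmt3b transgene and a Dnmt3l-Flag transgene, both driven by the constitutive CAG promoter, the latter selected with blasticidin. The 2i medium for both lines held the MEK inhibitor PD0325901 at 1 µM, the GSK3 inhibitor CHIR99021 at 3 µM and LIF at 1000 U/ml in serum-free N2B27. The study grew its serum cultures of J1 on feeder cells, which were depleted before use, and 3B3-3l on gelatin. The knockout line without transgenes was not analysed here, so the transgenes, the knockout and the history of the line cannot be told apart as sources of a difference. All 3 libraries of 3B3-3l come from that selected line.

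DNA methylation in mammals is laid down on unmethylated CpG by the de novo enzymes DNMT3A and DNMT3B, which DNMT3L stimulates without being an active enzyme itself, and it is copied at replication by DNMT1 with its partner UHRF1. TET enzymes oxidise methylcytosine. mESCs moved from serum to 2i shut down the de novo genes and lose much of their methylation, and with it the sharp placement of Polycomb marks. Germline genes, imprinted genes and some X-linked gene clusters are the classes best known to depend on methylation for silencing in these cells. A line whose Dnmt3b and Dnmt3l are read from a constitutive promoter was used by the study to hold methylation up in 2i, and the comparison asks what else is then different in the transcriptome.

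The 2i libraries held 39580829 to 44514956 estimated reads, and 37050133 to 44514956 over the whole series. Values are CPM, the usual per-million scale for counts, with library sizes scaled by TMM. A floor of 3 counts in a library was 0.0684 to 0.0774 CPM in 2i, which covers counting error only. A gene was called at an adjusted p under 0.05 in the edgeR quasi-likelihood test over all 17885 genes tested. Differences between groups are log2 fold changes of 3B3-3l over J1, each with its standard error. The labels call the libraries biological replicates. The mESC markers Pou5f1, Sox2, Nanog, Zfp42, Utf1, Esrrb, Tdgf1, Dppa4 and Dppa5a were all present, with a summed level of 6219 to 6486 CPM in 3B3-3l and 5254 to 6136 CPM in J1. The 12 feeder fibroblast markers summed to 238 to 251 CPM in 3B3-3l and 243 to 277 CPM in J1, most of it Vim, which mESCs also express, while Col3a1, Postn, Lum, Dcn and Fap were at or under the floor in both lines.

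The de novo methyltransferase genes were measured first, since they check the labels. Dnmt3b (chr2:153649411-153687730, ENSMUSG00000027478) stood at 914, 936 and 935 CPM in the 3 libraries of 3B3-3l and at 44.1, 41.0 and 47.2 CPM in those of J1. Dnmt3l (chr10:78042287-78063622) stood at 285, 290 and 294 CPM in 3B3-3l against 55.5, 47.9 and 55.1 CPM in J1. The lines did not overlap for either gene. The log2 difference was 4.40 ± 0.06 for Dnmt3b, a 21-fold higher level (edgeR adjusted p = 1.54e-16), and 2.46 ± 0.06 for Dnmt3l, a 5.48-fold higher level (edgeR adjusted p = 9.41e-13). Reads of a transgene and of the endogenous gene fall on the same gene and were not separated. Dnmt3a went the other way. It stood at 4.93, 5.07 and 4.0 CPM in 3B3-3l and at 44.5, 38.9 and 41.1 CPM in J1, a log2 difference of -3.15 ± 0.09 (edgeR adjusted p = 1.3e-12), and its reads in 3B3-3l stayed above the floor. With transcript length offsets the Dnmt3a difference was -1.58 (adjusted p = 3.58e-08), and under every other alternative it lay between -3.24 and -3.05.

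**Figure D1:**
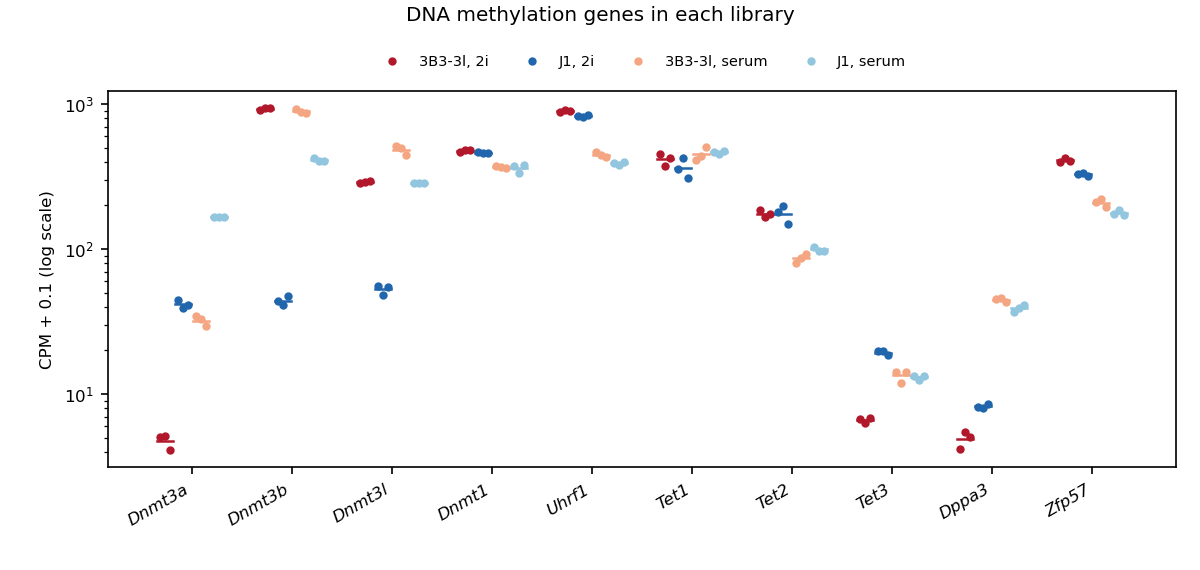
CPM + 0.1 (log axis) of 10 DNA methylation genes in each of the 12 libraries, coloured by line and medium, with a bar at each group mean (n = 3). In 2i the 3B3-3l libraries lie above the J1 libraries for Dnmt3b and Dnmt3l and below them for Dnmt3a, Tet3 and Dppa3, while the libraries of both lines lie close together for Dnmt1 and Uhrf1.

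Genes for maintenance and oxidation differed less. Dnmt1 was at 468, 485 and 482 CPM in 3B3-3l and 464, 461 and 461 CPM in J1, a log2 difference of 0.05 ± 0.05 that was not called (edgeR adjusted p = 0.421). Uhrf1 differed by 0.11 ± 0.05 (edgeR adjusted p = 0.0615), and passed the threshold with DESeq2 (adjusted p = 0.0476) and without J1 replicate 3 (0.0453). Tet2 was level between the lines (0.00 ± 0.08, edgeR adjusted p = 0.993). Tet1 had a log2 difference of 0.21 ± 0.10 that was not called, with edgeR adjusted p = 0.0987, but it was called without J1 replicate 2 (0.33, adjusted p = 0.00738), with transcript length offsets (0.35, adjusted p = 0.0101) and with no filter on low counts (0.20, adjusted p = 0.0366). Tet3, the third member of the family, was lower in 3B3-3l. It stood at 6.66, 6.23 and 6.70 CPM against 19.6, 19.6 and 18.4 CPM in J1, a log2 difference of -1.56 ± 0.08 (edgeR adjusted p = 5.76e-10). The lines lay apart in every library, and in serum the Tet3 difference was 0.03 and not called. Dppa3, whose product shields DNA from UHRF1 and methylation, was lower by -0.77 ± 0.09 at a low level (edgeR adjusted p = 4.22e-06). Among the readers and guides of methylation, the imprint guardians Zfp57 (0.32 ± 0.05) and Zfp445 (0.44 ± 0.09) and their co-repressor Trim28 (0.31 ± 0.06) were higher, as was Mbd1 (0.50 ± 0.06). Mbd4 (-0.44 ± 0.06), Tdg (-0.25 ± 0.05) and Mbd2 (-0.22 ± 0.07) were lower, and the Mbd2 call was lost without J1 replicate 1 (adjusted p = 0.111), without 3B3-3l replicate 2 (0.0579) or replicate 3 (0.0757), and with length offsets (0.0932). Of the 22 tested members of the methylation list, 7 were called higher and 6 lower, beside 23.0% of all tested genes called higher and 22.9% called lower. Tet3, Dppa3 and Mbd4 lie on chromosome 6, whose genes had a median of -0.41 in 2i. Without chromosomes 6, 8 and 11 the count was 7 higher and 3 lower of 19. Prdm14, a repressor of the de novo genes in naive cells, was at 45.5, 49.8 and 47.7 CPM in 3B3-3l and 40.8, 43.4 and 43.8 CPM in J1 (0.16 ± 0.05, edgeR adjusted p = 0.0225). That call was lost in the fit to the 6 libraries (adjusted p = 0.0715), with no filter (0.0945), and without 3B3-3l replicate 2 (0.199), 3B3-3l replicate 3 (0.0596) or J1 replicate 1 (0.101).

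Across the transcriptome, 8208 genes were called between the lines in 2i, 4110 higher and 4098 lower in 3B3-3l, or 45.9% of those tested. Most differences were small. The median absolute log2 difference was 0.27 over all genes and 0.45 over called genes, and 1447 genes (8.09%) were both called and at least 2-fold apart, 583 higher (3.26%) and 864 lower (4.83%). CPM values of the lines did not overlap for 9408 genes (52.6%). The same lines in serum gave 6916 calls (38.7%), 3845 higher (21.5%) and 3071 lower (17.2%). Of the genes higher in 3B3-3l in 2i, 1416 were also called higher in serum, 387 were called lower there and 2307 were not called. Of the genes lower in 2i, 1486 were also lower in serum, 608 were higher there and 2004 were not called. The difference between the line effects in the 2 media, which uses all 12 libraries, was called for 6200 genes (34.7%), 2923 toward higher (16.3%) and 3277 toward lower (18.3%) in 2i, among them 2123 of the genes higher in 2i and 2362 of those lower in 2i.

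**Figure D2:**
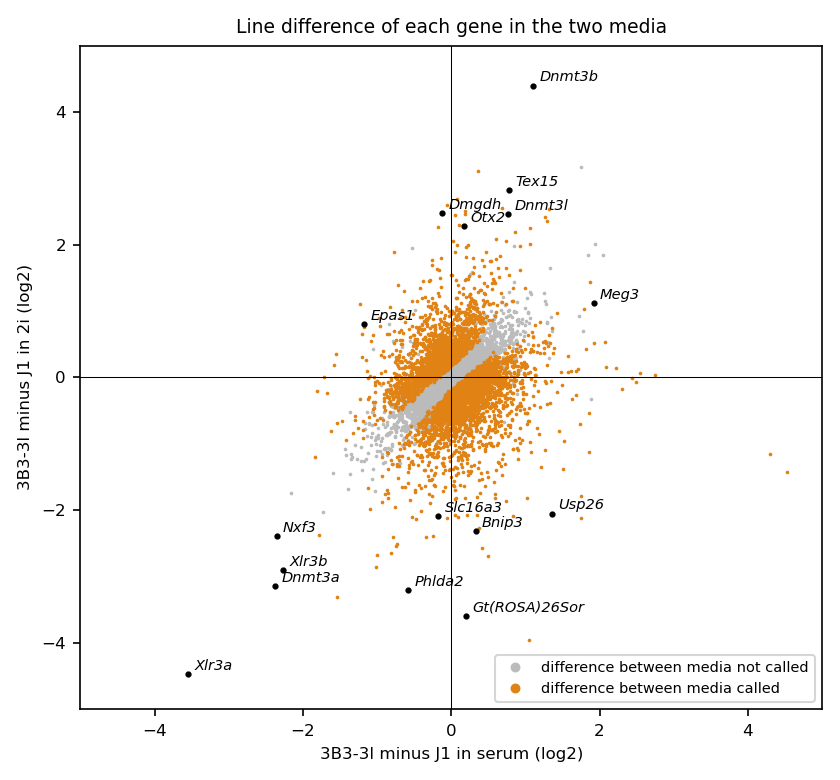
Log2 difference of 3B3-3l over J1 in 2i (vertical axis) against the same difference in serum (horizontal axis), 1 point per gene that averaged 5 CPM or more in some group, orange where the difference between the media was called. Dnmt3b, Tex15, Dmgdh and Otx2 lie far up near the middle, Gt(ROSA)26Sor, Phlda2 and Bnip3 lie far down near the middle, and Xlr3a, Xlr3b, Nxf3 and Dnmt3a lie low on both axes.

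A part of these calls followed the position of genes on chromosomes. The median log2 difference of the 762 tested genes of chromosome 6 was -0.41 in 2i, with 62.9% of them called lower and 6.82% called higher, while in serum it was 0.02. All 15 windows of 10 Mb along chromosome 6 were shifted, from -0.55 to -0.33. The level of the chromosome in single libraries, taken as the median over its genes relative to the 4-group mean, was 0.35, 0.32 and 0.35 on the log2 scale in J1 in 2i. It was -0.08, -0.09 and -0.10 in 3B3-3l in 2i, and between -0.14 and -0.09 in all serum libraries, so that the J1 libraries in 2i were the ones that stood apart. DNA copy number was not measured, and its part in these values was not tested.

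Chromosome 11 was shifted in both media. Its 363 genes in chr11:1-70000000 that averaged 5 CPM or more in either line had a median of -0.35 in 2i and -0.40 in serum, and the 258 in chr11:100000001-130000000 had -0.39 and -0.40. The stretch between them was not lower, with window medians of 0.11, 0.14 and 0.23 in 2i. Chromosome 8 was divided as well. The genes of chr8:10000001-50000000 had a median of 0.32 in 2i and 0.06 in serum, and those of chr8:90000001-130000000 had -0.20 in 2i and -0.52 in serum. Of the 59 windows with an absolute median of at least 0.15, 38 lay on chromosomes 6, 8 and 11, which held 41 of the 264 windows with at least 5 genes. Without these 3 chromosomes 6280 of 14891 genes (42.2%) were called, 3567 higher (24.0%) and 2713 lower (18.2%), so that the near balance of higher and lower genes over the whole genome came with them. Several gene lists below are therefore also counted without genes of these chromosomes, and the others only over all chromosomes. Counts of called members below are to be read beside 23.0% of all tested genes called higher and 22.9% called lower. Those without chromosomes 6, 8 and 11 are to be read beside 24.0% higher and 18.2% lower.

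The window with the largest median of all lay outside them, at chr7:130000001-140000000, with -0.80 in 2i and -0.81 in serum over 35 genes. The shift was held by its first part. In chr7:130000001-135000000 all 22 genes were called lower in 2i, with a median of -0.89 and -0.97 in serum, while in chr7:135000001-140000000 the median of 13 genes was 0.03 in 2i and -0.02 in serum. The relative level of the first part was -0.52, -0.49 and -0.55 in the 3B3-3l libraries in 2i and 0.40, 0.41 and 0.46 in those of J1, without overlap. The border between the parts was set after the values were seen. Leaving out the whole window as well as chromosomes 6, 8 and 11 gave 3561 higher and 2683 lower of 14834 genes.

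**Figure D3:**
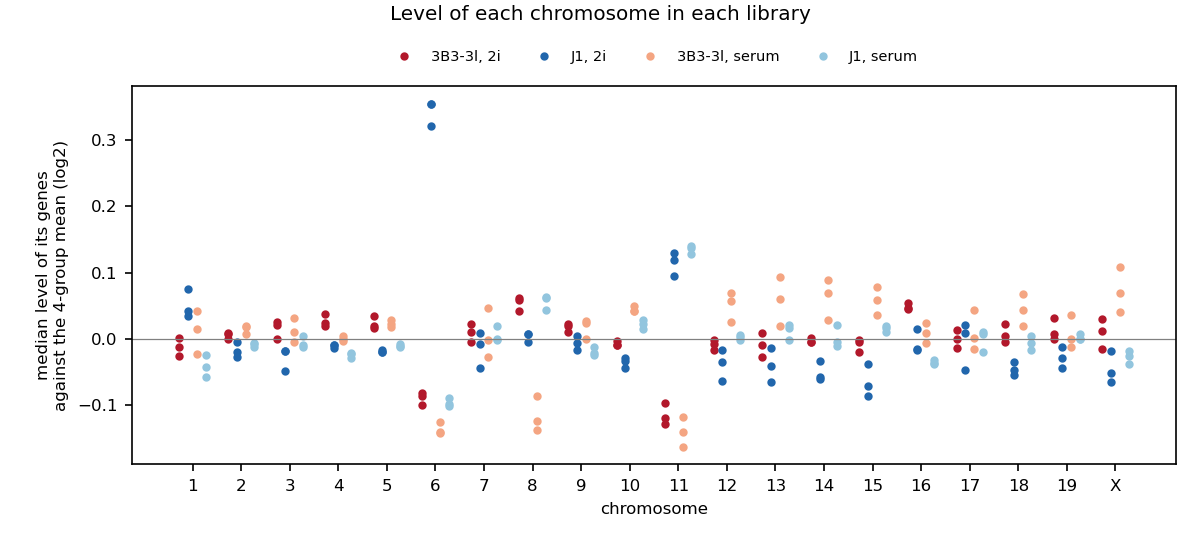
Median log2 level of the genes of each chromosome relative to the mean of the 4 groups, 1 point per library (3 per group), over the 9669 genes with at least 5 CPM in every library. J1 in 2i stands alone at 0.32 to 0.35 on chromosome 6, and the lines separate on chromosome 11 in both media.

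Smaller blocks of neighbours moved together by more than these shifts. Runs of at least 3 neighbouring tested genes that were all called in the same direction and all at least 2-fold apart numbered 21 and held 80 genes, with 5 runs higher and 16 lower in 3B3-3l. The betaine pathway genes formed one of the higher runs, on chromosome 13. Bhmt and Bhmt2 encode methyltransferases that use betaine or S-methylmethionine to remake methionine from homocysteine, and Dmgdh encodes the mitochondrial enzyme that takes up the dimethylglycine that is left. Dmgdh stood at 82.7, 81.7 and 79.0 CPM in 3B3-3l and at 15.0, 14.9 and 13.7 CPM in J1, a log2 difference of 2.48 ± 0.07 (edgeR adjusted p = 1.26e-12). Bhmt stood at 15.8, 15.3 and 14 CPM against 3.76, 3.67 and 3.88 CPM (1.99 ± 0.09, edgeR adjusted p = 3.06e-10), and Bhmt2 differed by 1.88 ± 0.08 (edgeR adjusted p = 5.47e-11). The lines did not overlap for any of these 3 genes. In serum all were under 1 CPM in every library of both lines, and none was called between them. Bhmt2 and Dmgdh are transcribed away from each other from promoters that overlap.

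The start regions of Bhmt and Dmgdh are shown because these neighbours were higher together and have unlike promoters. Both are RefSeq windows on GRCm38.p6 from 250 bases before to 50 bases after the start, written 5′ to 3′ on the strand of the gene with CpG in capitals. The Bhmt window (chr13:93637709-93638008, minus strand) holds 8 CpG, and the Dmgdh window (chr13:93674186-93674485, plus strand) holds 25. Over all 27025 windows the median was 7.
Bhmt: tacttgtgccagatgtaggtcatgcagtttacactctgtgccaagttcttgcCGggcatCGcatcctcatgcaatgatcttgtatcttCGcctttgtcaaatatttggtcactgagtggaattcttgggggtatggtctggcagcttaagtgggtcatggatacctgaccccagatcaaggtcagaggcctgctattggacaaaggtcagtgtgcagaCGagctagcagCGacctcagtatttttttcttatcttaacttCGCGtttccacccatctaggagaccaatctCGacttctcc
Dmgdh: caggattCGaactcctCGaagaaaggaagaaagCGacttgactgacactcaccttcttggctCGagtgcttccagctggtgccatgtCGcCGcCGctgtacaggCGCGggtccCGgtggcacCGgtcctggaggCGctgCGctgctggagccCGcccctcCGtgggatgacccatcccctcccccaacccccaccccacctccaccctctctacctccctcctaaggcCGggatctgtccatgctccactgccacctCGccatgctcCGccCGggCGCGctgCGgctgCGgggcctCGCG

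The longest run in the lower direction was the Xlr cluster of the X chromosome (chrX:73074343-73243130), where 9 neighbouring tested genes were lower by -4.47 to -1.58. Xlr genes are X-linked lymphocyte-regulated genes, related to a synaptonemal complex protein and known as methylation-sensitive in mouse cells. Xlr3a stood at 0.721, 0.788 and 1.03 CPM in 3B3-3l and at 17.7, 19 and 19.5 CPM in J1 (-4.47 ± 0.15, edgeR adjusted p = 7.57e-12). Xlr3b stood at 3.10, 2.73 and 3.12 CPM against 20, 22.4 and 24.5 CPM (-2.90 ± 0.10, edgeR adjusted p = 1.26e-11). These are levels 22.2-fold and 7.47-fold lower in 3B3-3l, without overlap of libraries. They were lower in serum too, by -3.55 and -2.26, and F8a, a member of the run that is not an Xlr gene, was lower in 2i (-1.58 ± 0.18, edgeR adjusted p = 3.7e-06) but not called in serum (-0.10). Copies of these genes are nearly identical, so the share of reads of each is uncertain. The start regions of Xlr3a and Xlr4a are given with CpG in capitals. They hold 5 CpG in the Xlr3a window (chrX:73097046-73097345, minus strand) and 8 in the Xlr4a window (chrX:73082458-73082757, minus strand).
Xlr3a: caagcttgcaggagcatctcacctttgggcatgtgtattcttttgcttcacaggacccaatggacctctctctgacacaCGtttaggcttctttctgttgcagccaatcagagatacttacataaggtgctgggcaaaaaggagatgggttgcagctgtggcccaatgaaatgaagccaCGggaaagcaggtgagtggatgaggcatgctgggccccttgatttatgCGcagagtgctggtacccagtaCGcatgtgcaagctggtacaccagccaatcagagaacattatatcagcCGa
Xlr4a: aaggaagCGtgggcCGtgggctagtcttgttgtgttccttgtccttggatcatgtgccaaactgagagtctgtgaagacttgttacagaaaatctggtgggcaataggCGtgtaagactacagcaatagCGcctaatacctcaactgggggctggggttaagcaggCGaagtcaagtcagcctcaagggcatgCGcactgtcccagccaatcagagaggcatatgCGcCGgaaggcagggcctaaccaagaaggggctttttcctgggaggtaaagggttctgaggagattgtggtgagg

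Other runs held genes of varied kinds. On chromosome 11, 7 neighbours from Gm11696 to Prkar1a (chr11:109354778-109669663) were lower by -2.22 to -1.14. Prkar1a, a regulatory subunit of protein kinase A, stood at 80.9, 73.9 and 76.4 CPM in 3B3-3l and at 187, 172 and 193 CPM in J1, and its difference was nearly the same in 2i (-1.25 ± 0.06, edgeR adjusted p = 2.26e-10) and in serum (-1.22). On chromosome 7, 5 neighbours from Chst15 to Fam53b (chr7:132235779-132813848) were lower, inside the stretch above whose median was -0.89, among them Oat, the ornithine aminotransferase (-1.21 ± 0.05, edgeR adjusted p = 1.21e-10), and the homeobox gene Nkx1-2. A pair of runs of histone genes on chromosome 13 was lower, and so were runs with keratins (Krt16, Krt17 and Krt42), with Rhox6 and Rhox9, and with Fthl17 genes of the X chromosome. Among the higher runs were the betaine genes, Zscan4 genes, a group of Gm genes on chromosome 12, and Gtsf1 with its neighbours.

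Ranked by log2 difference over called genes that reached 5 CPM on average in the higher line without overlap of libraries, the 12 highest in 3B3-3l were led by Dnmt3b, with Dnmt3l and Dmgdh also among them. Tex15, needed for meiotic recombination and for silencing of transposons in the male germline, stood at 24.4, 21.1 and 23.4 CPM against 2.89, 3.88 and 3.00 CPM in J1 (2.82 ± 0.13, edgeR adjusted p = 1.72e-10). Dio3, an imprinted gene whose enzyme inactivates thyroid hormone, stood at 16.4, 16.8 and 17.1 CPM against 2.32, 2.57 and 2.95 CPM (2.68 ± 0.10, edgeR adjusted p = 2.02e-11). Slc1a1, a glutamate transporter, stood at 15.0, 14.2 and 13.7 CPM against 2.67, 2.66 and 1.76 CPM (2.59 ± 0.12, edgeR adjusted p = 2.26e-10). All 3 lay clear of J1 in every library. In serum Dio3 and Slc1a1 were not called, while Tex15 was higher there too, by 0.78. Tex15 lies on chromosome 8 in the stretch whose median was 0.32. The remaining genes of this group were Ccdc141 (2.55 ± 0.08), Susd1 (2.50 ± 0.10, but 1.87 with transcript length offsets), the gluconeogenic enzyme gene Fbp2 (2.44 ± 0.14), the sorting receptor gene Sorcs2 (2.41 ± 0.15), Wls, whose product carries Wnt proteins to the surface (2.36 ± 0.16), and P2rx7, an ATP-gated channel (2.30 ± 0.12). Their edgeR adjusted p values ran from 8.88e-12 for Ccdc141 to 1.66e-08 for Wls.

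The 12 lowest by the same rule were led by Xlr3a, with Xlr3b and Dnmt3a also among them. Gt(ROSA)26Sor (chr6:113067428-113077244), the noncoding gene at the Rosa26 locus that is read in most tissues, stood at 1.68, 1.92 and 1.91 CPM in 3B3-3l and at 20.3, 21.6 and 25 CPM in J1 (-3.60 ± 0.12, edgeR adjusted p = 1.18e-11). In serum it was between 1.30 and 2.06 CPM in all libraries of both lines, so that J1 in 2i was the only high group of the 4. Its neighbours Setd5 and Thumpd3 differed by -0.47 and -0.44, close to the median of chromosome 6 on which all 3 lie. Phlda2, an imprinted gene that restrains growth of the placenta, stood at 2.57, 2.25 and 2.24 CPM against 23.3, 19.6 and 22.1 CPM (-3.20 ± 0.10, edgeR adjusted p = 4.98e-12). Egr1, an immediate early gene downstream of ERK, stood at 0.649, 0.950 and 2.91 CPM against 6.68, 12.8 and 12.7 CPM (-2.86 ± 0.33, edgeR adjusted p = 4.22e-06). Its libraries lay far apart within each line, with 3B3-3l replicate 3 the highest of its line and J1 replicate 1 the lowest, but the lines did not overlap. Without 3B3-3l replicate 3 the Egr1 difference was -3.73, and without another single library it lay between -3.11 and -2.50. The others were 1700013H16Rik on the X chromosome (-3.96 ± 0.20), Ndufa4l2, a mitochondrial protein gene that responds to hypoxia (-2.69 ± 0.23), Miip (-2.68 ± 0.14), the centrosome gene Sfi1 (-2.58 ± 0.08), the testis cytochrome c gene Cyct (-2.54 ± 0.13) and Dmrtc1c1 (-2.51 ± 0.15).

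A group of genes of the response to low oxygen was lower in 3B3-3l in 2i. Cells sense oxygen through the EGLN prolyl hydroxylases, which mark the factors HIF1A and EPAS1 for removal by VHL. When the factors are stable they pair with ARNT and switch on glucose transport, glycolysis, lactate export, mitophagy and their own EGLN brakes. Of 37 such genes in a list written after the values were seen, 30 were called lower and 3 higher, with a median of -0.75, beside 22.9% and 23.0% and a median of 0.01 for all genes. Without the 11 that lie on chromosomes 6, 8 and 11, 20 of 26 were lower and 3 higher, with a median of -0.54, and without the chromosome 7 window that holds Bnip3 19 of 25 were lower, with a median of -0.47. In serum 13 were higher and 5 lower, with a median of 0.20. Bnip3, a mitophagy receptor, stood at 11.3, 10.6 and 17.5 CPM in 3B3-3l and at 52.3, 65.4 and 77.8 CPM in J1 (-2.31 ± 0.17, edgeR adjusted p = 3.56e-08). Bnip3 lies in the second part of that window, where its neighbours Ppp2r2d and Inpp5a differed by -0.04 and 0.03, and it was higher in serum by 0.33. Egln3 stood at 3.32, 2.83 and 4.62 CPM against 12.7, 15.6 and 16.9 CPM (-2.07 ± 0.19, edgeR adjusted p = 2.83e-07). Slc16a3, the lactate exporter, stood at 22.3, 23.2 and 34.7 CPM against 95.8, 108 and 137 CPM (-2.09 ± 0.15, edgeR adjusted p = 1.94e-08). For each, all libraries of 3B3-3l lay under those of J1, and the highest 3B3-3l library was replicate 3 and the highest J1 library replicate 3.

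Further members were lower by less. Egln1 stood at 20.5, 19.7 and 22.1 CPM against 56.5, 65.2 and 71.0 CPM (-1.63 ± 0.09, edgeR adjusted p = 1.61e-09), and the glucose transporter Slc2a1 at 201, 211 and 234 CPM against 392, 405 and 483 CPM (-0.99 ± 0.09, edgeR adjusted p = 2.8e-07). Pgm2, which acts on sugar phosphates, was lower by -2.08 ± 0.11, the collagen hydroxylase gene P4ha2 by -1.49 ± 0.13 and the glycolytic regulator Pfkfb3 by -1.23 ± 0.13. The 3 called higher were Ak4 (0.24), Mxi1 (0.22) and Pfkfb4 (0.41), and the Ak4 call was lost without J1 replicate 1, without 3B3-3l replicate 3 and with length offsets (adjusted p = 0.0686, 0.0544 and 0.0681). RNA of the factors themselves was not lower in 3B3-3l, and their protein was not measured here. Hif1a stood at 121, 113 and 117 CPM against 118, 127 and 105 CPM (0.01 ± 0.06, edgeR adjusted p = 0.925) and Arnt differed by 0.04 ± 0.04 (edgeR adjusted p = 0.411). Epas1 was higher, at 15.4, 16.3 and 15.8 CPM against 9.07, 9.73 and 8.29 CPM (0.81 ± 0.07, edgeR adjusted p = 3.08e-07), and in serum it was lower by -1.17. Vhl, on chromosome 6, was lower by -0.51 ± 0.06. Oxygen, cell density and harvest were not recorded in the labels, and their part in these values was not tested.

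**Figure D4:**
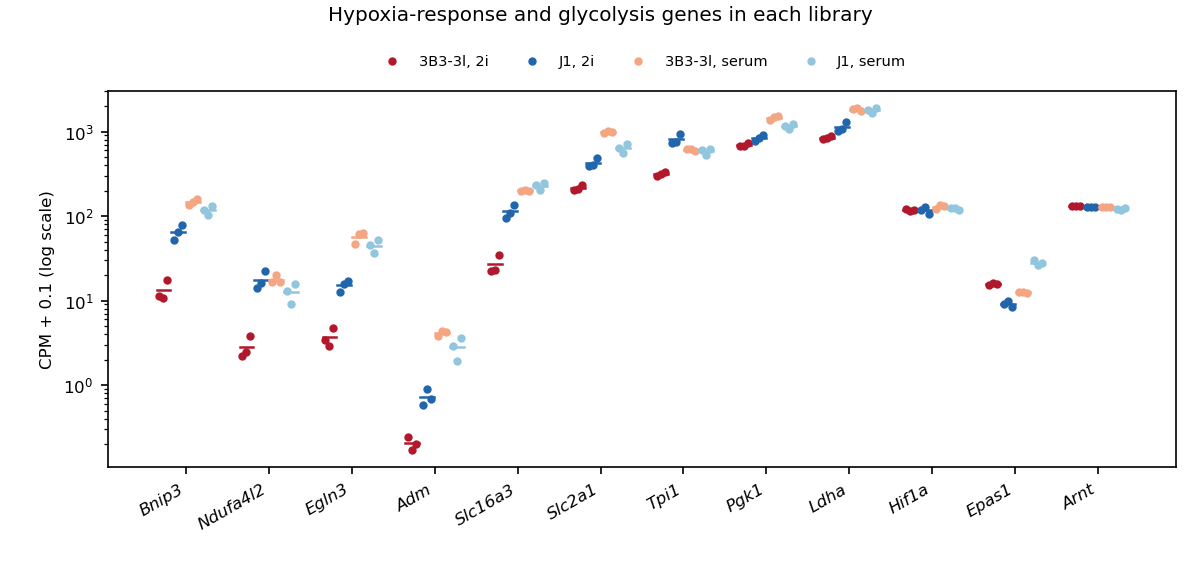
CPM + 0.1 (log axis) of hypoxia-response and glycolysis genes and of the factors Hif1a, Epas1 and Arnt in each of the 12 libraries, with a bar at each group mean (n = 3). The 3B3-3l libraries in 2i have the lowest mean of the 4 groups for Bnip3, Ndufa4l2, Egln3, Slc16a3, Slc2a1, Tpi1, Pgk1 and Ldha, while the lines overlap in 2i for Hif1a.

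Glycolysis genes leaned the same way, and 8 of them also stand in the hypoxia list. Of 23 tested, 16 were lower and 1, Pfkm, was higher, with a median of -0.40, and without chromosomes 6, 8 and 11 the count was 8 lower and 1 higher of 15, with a median of -0.18. In serum 7 of them were called higher. Tpi1 stood at 298, 312 and 335 CPM against 734, 753 and 931 CPM (-1.35 ± 0.08, edgeR adjusted p = 5.57e-09), and Gapdh at 436, 452 and 484 CPM against 716, 707 and 753 CPM (-0.67 ± 0.05, edgeR adjusted p = 1.01e-07). Both lie on chromosome 6. Off that chromosome, Ldha differed by -0.42 ± 0.08 (edgeR adjusted p = 0.000351) and Pgk1 by -0.28 ± 0.07 (edgeR adjusted p = 0.00449). The respiratory chain showed no such lean, with 8 higher and 7 lower of 36 and a median of 0.05.

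The start windows of Bnip3 and Egln3 are shown with the core of the hypoxia response element in capitals, since both belong to the group above. The core was searched as ACGTG or GCGTG on either strand, which appears as CACGT or CACGC on the strand printed, and matches may overlap where CACGTG holds both forms. Such a core stood in 28 of the 33 list members with a window (84.8%), and in 23 of the 27 called lower (85.2%). Over the windows of tested genes the share was 60.7%. Each core holds a CpG, and windows of equal CpG content were not compared, so these shares are a description only. The Bnip3 window (chr7:138909457-138909756, minus strand) holds 5 matches and the Egln3 window (chr12:54203825-54204124, minus strand) holds 1. A match is a run of letters and no evidence of binding.
Bnip3: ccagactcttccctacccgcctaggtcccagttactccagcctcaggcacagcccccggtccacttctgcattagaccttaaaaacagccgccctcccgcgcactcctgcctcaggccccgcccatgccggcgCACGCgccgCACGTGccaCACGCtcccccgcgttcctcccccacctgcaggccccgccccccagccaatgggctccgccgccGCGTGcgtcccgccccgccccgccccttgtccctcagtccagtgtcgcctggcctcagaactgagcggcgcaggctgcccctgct
Egln3: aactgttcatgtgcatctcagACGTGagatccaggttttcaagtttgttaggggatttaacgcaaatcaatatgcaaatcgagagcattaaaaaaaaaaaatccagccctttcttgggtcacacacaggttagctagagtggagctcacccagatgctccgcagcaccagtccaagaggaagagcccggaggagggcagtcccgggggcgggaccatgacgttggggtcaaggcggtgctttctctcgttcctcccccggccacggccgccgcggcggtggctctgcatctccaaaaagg

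Imprinted genes, which are read from the allele of a single parent under control of inherited methylation, moved in both directions. Of 27 tested genes read from the paternal allele, 7 were higher (25.9%) and 12 lower (44.4%). Of 31 read from the maternal allele, 6 were higher (19.4%) and 13 lower (41.9%). Over all tested genes 23.0% were higher and 22.9% lower. Without chromosomes 6, 8 and 11 the paternal counts were 6 higher and 9 lower of 21. The maternal counts were then 5 higher and 7 lower of 22. In serum the paternal group had 13 higher and 1 lower. Slc38a4, an amino acid transporter, stood at 33.3, 32.6 and 31.6 CPM in 3B3-3l and at 110, 112 and 98 CPM in J1 (-1.71 ± 0.06, edgeR adjusted p = 1.75e-11), and was not called in serum. Peg12 stood at 2.12, 1.44 and 1.65 CPM against 7.84, 6.98 and 7.61 CPM (-2.11 ± 0.14, edgeR adjusted p = 9.29e-09). Mest, on chromosome 6, was at 57.9, 57.8 and 58.3 CPM against 148, 148 and 157 CPM (-1.38 ± 0.05, edgeR adjusted p = 1.75e-11). All 3 were lower in each library of 3B3-3l.

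Phlda2 was lower together with its neighbours Cdkn1c, a cell cycle inhibitor (-1.28 ± 0.20, edgeR adjusted p = 9.46e-05), and Slc22a18 (-1.02 ± 0.12, edgeR adjusted p = 4.63e-06), which belong to the same imprinted domain on chromosome 7 (chr7:143458339-143503145). The imprinted domain of chromosome 12 was higher. Its long noncoding RNA Meg3 stood at 283, 283 and 285 CPM against 136, 140 and 116 CPM (1.12 ± 0.07, edgeR adjusted p = 4.56e-09), and Dlk1 (0.82 ± 0.22), Rtl1 (0.51 ± 0.15) and Dio3 (above) were also called higher. The Rtl1 call was lost without 3B3-3l replicate 2 (adjusted p = 0.0508). In serum the Meg3 difference was larger, at 1.92, and that of Dio3 was 0.08, so that the genes of the domain did not keep 1 pattern. Allele of origin cannot be read from these data.

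Germline genes, many of them silenced by promoter methylation in somatic cells, had members in both directions. Of 37 tested meiosis genes, 16 were higher (43.2%) and 10 lower (27%), with a median of 0.33, and in serum 15 were higher and 2 lower. Without chromosomes 6, 8 and 11 the meiosis count in 2i was 13 higher and 6 lower of 28. Beside Tex15, the higher genes included Taf7l, a germ cell form of a general transcription factor subunit, at 3.27, 3.29 and 3.53 CPM against 1.07, 1.26 and 0.463 CPM (1.84 ± 0.22, edgeR adjusted p = 6.5e-06), and Tex11 (0.98 ± 0.12). The recombinase gene Dmc1 was lower, at 3.01, 2.25 and 2.63 CPM against 6.20, 5.92 and 5.19 CPM (-1.14 ± 0.12, edgeR adjusted p = 1.83e-06), as were the cohesin gene Smc1b (-1.09 ± 0.18) and Stra8, which starts meiosis (-0.70 ± 0.12). Stra8 lies on chromosome 6. Of 23 genes of the piRNA pathway and transposon defence, 7 were higher, such as Ddx4 (0.76 ± 0.07), Mov10l1 (0.69 ± 0.10) and Gtsf1 (1.25 ± 0.17), and 6 were lower. Among the latter, Tex19.1 stood at 64.7, 67.5 and 66.9 CPM against 116, 110 and 136 CPM (-0.86 ± 0.07, edgeR adjusted p = 5.74e-08), and Tex19.2 was lower by -1.46 ± 0.21. Both lie in the shifted end of chromosome 11 and were lower in serum as well. Without chromosomes 6, 8 and 11 the piRNA and transposon defence list had 7 higher and 2 lower of 17.

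The X-linked Rhox and Xlr clusters were mostly lower. Of 34 genes listed, 15 passed the filter on low counts, and of these 11 were lower in 2i, 1 was higher and 3 were not called, with a median of -1.91. In serum 10 of the 15 were lower, with a median of -1.53. The filter covers all 12 libraries, so a gene can pass through either line in either medium, and the median of those that passed is a description only. Rhox6 was lower by -1.27 ± 0.18 and Rhox13 was higher by 1.55 ± 0.16. Elsewhere on the X chromosome, Nxf3, an RNA export factor gene, stood at 6.08, 6.19 and 6.32 CPM against 31.2, 37.3 and 29.3 CPM (-2.40 ± 0.10, edgeR adjusted p = 1.1e-10) and differed about as much in serum (-2.35). Usp26, a testis deubiquitinase gene, turned between media. It stood at 2.64, 2.32 and 2.53 CPM against 11.1, 11.2 and 8.73 CPM in 2i (-2.05 ± 0.11, edgeR adjusted p = 1.18e-09) and was higher in 3B3-3l in serum by 1.36.

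Genes of the 2-cell-like state, a rare and passing state of mESCs that resembles the 2-cell embryo, were higher in 3B3-3l. Of 17 that passed the filter, 12 were called higher and 5 were not called, with a median of 2.04, beside 23.0% of all genes called higher, and in serum 1 was higher and 1 lower. Members can pass the filter through either line in either medium, so this median is a description only. With at least 10 counts in every library it was 0.90 with 6 called. Zscan4f stood at 4.09, 4.93 and 4.62 CPM against 0.251, 0.780 and 0.537 CPM in J1 (3.12 ± 0.23, edgeR adjusted p = 2.94e-08), and Zscan4c at 2.04, 2.13 and 2.40 CPM against 0.319, 0.275 and 0.293 CPM (2.87 ± 0.16, edgeR adjusted p = 1.77e-09). Zscan4f was higher in serum in both lines, with 6.50 to 9.81 CPM of Zscan4f. Levels in 2i are low and copies nearly identical, and a change in the number of such cells and a change per cell cannot be told apart in bulk RNA. Calcoco2, which many cells express, was among the higher members at a far higher level, at 142, 157 and 143 CPM against 56.6, 59.5 and 67.7 CPM (1.27 ± 0.07, edgeR adjusted p = 1.41e-09).

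**Figure D5:**
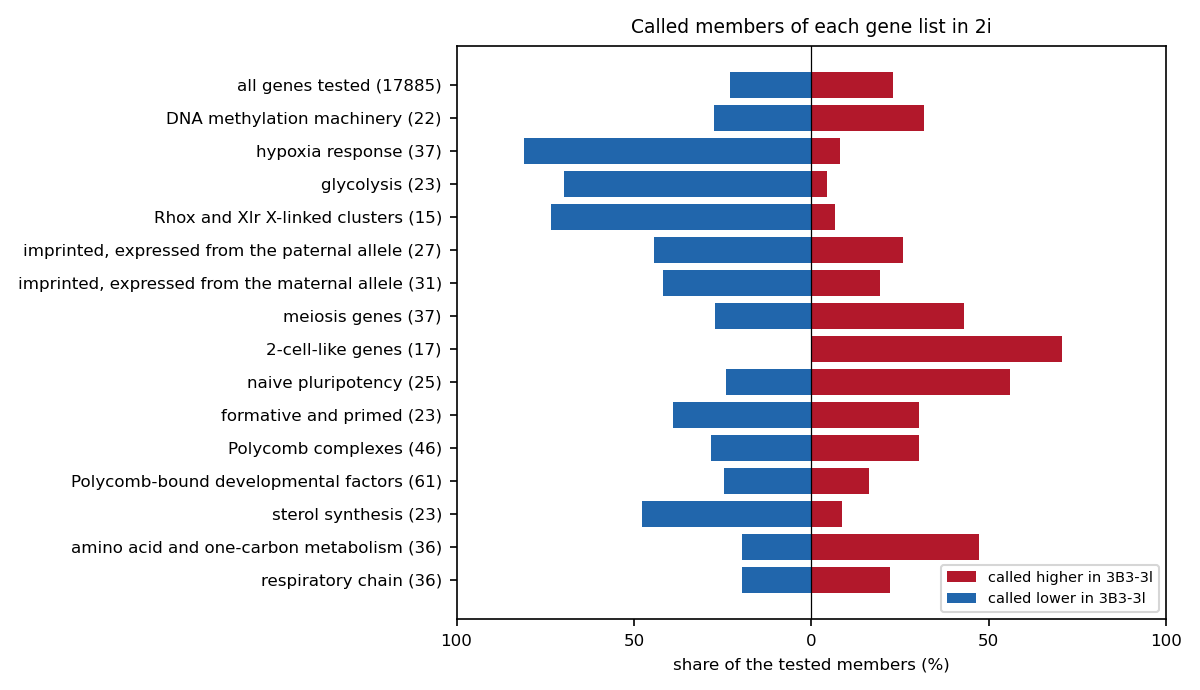
Share of the tested members of each gene list (number tested in parentheses) that were called higher (red, to the right) or lower (blue, to the left) in 3B3-3l in 2i, with all 17885 genes at the top for reference. The hypoxia response, glycolysis and the Rhox and Xlr clusters lean to the lower side, and the 2-cell-like genes lean to the higher side.

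Naive pluripotency was kept in both lines. Of 25 genes, 14 were higher in 3B3-3l and 6 lower, by small amounts (median 0.16), and without chromosomes 6, 8 and 11 the count was 12 higher and 2 lower of 18. Nanog was not called (-0.09 ± 0.04, edgeR adjusted p = 0.121) and neither was Esrrb, at 908, 972 and 935 CPM against 953, 871 and 888 CPM (0.05 ± 0.05, edgeR adjusted p = 0.426). The secreted phosphoprotein gene Spp1 had the largest difference of the list, at 694, 682 and 658 CPM against 248, 245 and 272 CPM (1.41 ± 0.05, edgeR adjusted p = 1.75e-11). Tcl1 (0.69 ± 0.05), Sall4 (0.60 ± 0.05) and Zfp42 (0.56 ± 0.06) were higher as well. Pecam1 (-0.43 ± 0.06) and Socs3 (-0.41 ± 0.06), both in the shifted end of chromosome 11, were lower. In serum 7 of the 25 naive genes were higher in 3B3-3l and 13 lower, with a median of -0.18. Among genes of the formative and primed states, 7 were higher and 9 lower of 23. Otx2, a factor of the exit from the naive state, stood at 13.4, 13.5 and 13.9 CPM against 2.55, 3.05 and 2.80 CPM (2.27 ± 0.09, edgeR adjusted p = 5.47e-11), still well under the 39.4 to 49.8 CPM of the serum libraries. Fgf5 was at or under the floor in every 3B3-3l library, and its mean in J1 was 0.056 CPM (SD 0.057), also under the floor. Foxp1 (-1.18 ± 0.10), on chromosome 6, and Zic2 (-0.65 ± 0.07) were lower. Zic2 lies in chr14:110000001-130000000, where the median of 22 genes was -0.22 in 2i and 0.10 in serum.

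Targets of the inhibited pathways did not move as blocks. Of 21 genes that respond to ERK, 10 were higher and 5 lower. Etv1 (1.65 ± 0.07), Dusp6 (0.81 ± 0.06) and Spry2 (0.78 ± 0.04), feedback or effector genes of the pathway, were higher, while Egr1, Ier3 (-1.29 ± 0.12) and Spry1 (-0.57 ± 0.08) were lower. Of 23 Wnt-responsive genes, which inhibition of GSK3 switches on, 8 were higher and 8 lower. Axin2, a direct target, stood at 51.0, 52.1 and 51.8 CPM against 123, 129 and 130 CPM (-1.30 ± 0.04, edgeR adjusted p = 1.08e-11), and it lies in the shifted end of chromosome 11, where the median was -0.39. Cdx1, off that chromosome, was at 30.5, 29.7 and 29.5 CPM against 66.2, 56.2 and 54.6 CPM (-0.98 ± 0.09, edgeR adjusted p = 2.86e-07). The repressor gene Tcf7l1 (0.89 ± 0.06) and the receptor gene Tnfrsf19 (1.12 ± 0.10) were higher. Without chromosomes 6, 8 and 11 the Wnt count was 6 higher and 3 lower of 14.

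Lists of other lineages had members in both directions. Primitive endoderm genes had 7 higher and 5 lower of 21, and 7 higher and 1 lower of 16 without chromosomes 6, 8 and 11. The summed level of 8 defining markers was 142 to 145 CPM in 3B3-3l and 177 to 196 CPM in J1. Most of it was Lama1, whose lower mean in 3B3-3l set the direction of the sum. Means of Dab2 (1.88 against 1.22 CPM), Pdgfra (1.09 against 0.70) and Sox7 (0.59 against 0.25) were higher in 3B3-3l. Those of Gata6 (0.12 against 0.19) and Sox17 (0.24 against 0.31) were lower, Gata4 was nearly level, and Foxa2 was at or under the floor. Trophoblast and simple epithelial genes had 3 higher and 8 lower of 25, with Krt19 lower by -1.47 ± 0.16, and their 7 defining markers summed to 32.5 to 35.0 CPM against 39.3 to 42.1 CPM. Neural genes had 4 higher and 4 not called of 8, with Stmn2 at 341, 341 and 319 CPM against 201, 184 and 211 CPM (0.75 ± 0.06, edgeR adjusted p = 6.54e-08). In the list of mesoderm and streak genes 2 were higher and 5 lower of 18, and 11 were called without J1 replicate 3. Fibroblast genes had 7 higher and 4 lower of 20. Col5a2 (2.01 ± 0.23), Thy1 (1.16 ± 0.13) and Tagln (0.91 ± 0.23) were higher at low levels, and Pdgfrb was lower, at 7.29, 7.25 and 7.45 CPM against 20, 19.9 and 18.4 CPM (-1.41 ± 0.10, edgeR adjusted p = 1.59e-08), with the defining collagen gene Col3a1 at or under the floor in both.

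Polycomb complexes, which repress developmental genes, had 14 members higher and 13 lower of 46, and without chromosomes 6, 8 and 11 12 higher and 6 lower of 33. The core subunit gene Eed was higher, at 152, 142 and 148 CPM against 97.9, 110 and 107 CPM (0.49 ± 0.06, edgeR adjusted p = 4.35e-06), as was Asxl1 (0.52 ± 0.04), and the variant PRC1 gene Pcgf5 was lower (-0.95 ± 0.12). Their targets differed in single genes and not as a block. Of 61 tested developmental factor genes known as Polycomb targets, 10 were higher, 15 lower and 36 not called, with a median of -0.03, and the 98 matched summed to 412 to 423 CPM in 3B3-3l and 461 to 490 CPM in J1. Nkx1-2, in the shifted stretch of chromosome 7, was lower, at 10.4, 10.6 and 12.7 CPM against 45.9, 51.1 and 47.9 CPM (-2.10 ± 0.09, edgeR adjusted p = 9.27e-11). Tlx2, on chromosome 6, was lower too, at 4.98, 4.82 and 5.34 CPM against 13.7, 13.2 and 13.9 CPM (-1.43 ± 0.10, edgeR adjusted p = 5.62e-08). Foxd3 was higher, at 17.2, 17.9 and 18.9 CPM against 7.63, 6.95 and 7.27 CPM (1.31 ± 0.07, edgeR adjusted p = 2.17e-09).

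Hox genes differed little between the lines in 2i. Of 39 listed, 17 were tested, with 3 higher, 3 lower and 11 not called, and the 38 matched genes summed to 30.9 to 31.3 CPM in 3B3-3l and 29.0 to 30.5 CPM in J1. Hoxb13 was higher (1.03 ± 0.22). Genes of H3K9 methylation and KAP1 repression had 9 higher and 4 lower of 25. Zfp809, a zinc finger gene that silences retroviruses, was at 24.3, 22.5 and 23.5 CPM against 10.7, 11.8 and 9.98 CPM (1.11 ± 0.08, edgeR adjusted p = 2.04e-08), and the H3K9 methyltransferase gene Ehmt2 was lower (-0.41 ± 0.06).

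Metabolic, interferon and histone genes completed the lists. Amino acid and one-carbon genes had 17 higher and 7 lower of 36, and 15 higher and 2 lower of 27 without chromosomes 6, 8 and 11. Opposite to Slc1a1, the neutral amino acid transporter Slc1a4 was lower, at 19.3, 21.3 and 22.2 CPM against 89.9, 72.4 and 64.6 CPM (-1.85 ± 0.11, edgeR adjusted p = 2.78e-09), and was lower in serum by -0.56. Sterol synthesis had 11 lower and 2 higher of 23, the lower ones modest, such as Mvd (-0.54 ± 0.08) and Dhcr7 (-0.52 ± 0.05). Interferon-stimulated genes had 8 higher and 5 lower of 25, with Ly6a at 35.8, 41.1 and 35.9 CPM against 9.82, 8.88 and 11.7 CPM (1.89 ± 0.10, edgeR adjusted p = 6.42e-10) and H2-K1 lower (-1.22 ± 0.07). Of 44 tested replication-dependent histone genes, 27 were lower and 1 higher, with a median of -1.04, and in serum 4 were lower and 3 higher. Most of these transcripts lack a poly(A) tail while the libraries were selected for poly(A), and the part of capture in these values was not tested. H4c9 stood at 0.625, 0.510 and 0.567 CPM against 2.16, 1.93 and 1.93 CPM (-1.82 ± 0.21, edgeR adjusted p = 3.6e-06).

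Presence in 1 line alone was rare. A gene counted as on in 1 line if every library of the other held at most 3 counts and every library of its own at least 1 CPM. Cers1 met this in 3B3-3l and Gdf1 in J1, and no other gene did. Cers1 stood at 3.37, 2.64 and 3.15 CPM in 3B3-3l and at 0.0684, 0.0459 and 0 CPM in J1, and Gdf1 at 0 CPM in all 3 libraries of 3B3-3l and 3.8, 3.44 and 3.93 CPM in J1. Both names cover the same stretch of chromosome 8 and share reads, so that their split between the names is uncertain.

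Genes called and at least 2-fold apart had fewer promoter CpG than all tested genes in both directions, more so among the higher ones. In RefSeq windows of 250 bases before to 50 after the start, the median number of CpG was 20 over 12159 tested genes, 21 over 2873 genes called higher and 19 over 3093 called lower. Over genes called and at least 2-fold apart it was 11 for 344 higher and 13 for 587 lower genes, and 33.7% and 21.8% of these windows held 5 CpG or fewer, beside 13.0% over all tested. These medians are descriptions without a test.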

How the data were processed

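Poly(A) RNA of 12 libraries, 3 for each line and medium, was sequenced with a stranded protocol, and the authors quantified the reads with Sailfish and summed transcripts to genes with tximport, with mm10 named as the genome build. RefSeq is given as the source of gene models in the study's methods, but genes carry Ensembl identifiers. The deposited values per gene are estimated counts. TPM and effective lengths, computed by the authors, are given per transcript for each library. They were used only for the alternative with transcript length offsets, where TPM weighted the length of each gene. The libraries were pooled for sequencing, and the pools are not given in the labels.

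Estimated counts were rounded, scaled by TMM and tested over all 12 libraries in a model of 4 groups without covariates with edgeR 4.0.16 (R 4.3.3, glmQLFit and glmQLFTest, Benjamini-Hochberg adjustment, threshold 0.05) after edgeR's filter on low counts, which left 17885 genes. The biological coefficient of variation was 6.49%. The difference between media was an interaction contrast. The procedure was tested on simulated counts. Alternatives were DESeq2 1.42.0, other size factors, filters, length offsets, the 6 libraries alone, a replicate block and leaving out each library.

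The comparison, its gene lists and its tests were chosen with earlier results of these data known. The hypoxia and histone lists, the windows, the runs of neighbours and leaving out chromosomes 6, 8 and 11 or a window of chromosome 7 were chosen after values were seen. Genes named were the 12 highest and 12 lowest called genes reaching 5 CPM on average without overlap, up to 3 called members of each list in each direction with a mean of at least 1 CPM, all methylation genes, Prdm14, Esrrb and Uhrf1, genes on in 1 line and up to 3 defining members of a list. Genes named from runs, from the hypoxia list, and Rosa26 neighbours were picked after their values were seen. Start regions came from RefSeq tables on GRCm38.p6. A few results are not reported here.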

Additional observations from a re-analysis of the deposited data

Results flagged for a closer look

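The line difference itself differed between 2i and serum, by the interaction contrast over 12 libraries in edgeR with adjusted p under 0.05, for 6200 genes. Values here are the log2 line difference in 2i minus that in serum. Among the genes that were highest in 3B3-3l in 2i, it was 3.29 for Dnmt3b, 2.65 for Slc1a1, 2.60 for Dmgdh, 2.60 for Dio3, 2.40 for Fbp2, 2.31 for Susd1, 2.19 for P2rx7, 2.03 for Tex15, 1.86 for Ccdc141, 1.69 for Dnmt3l, 1.14 for Sorcs2 and 1.07 for Wls. Among the lowest it was -5.01 for 1700013H16Rik, -3.79 for Gt(ROSA)26Sor, -3.18 for Ndufa4l2, -2.99 for Sfi1, -2.62 for Phlda2, -1.84 for Egr1, -1.80 for Cyct, -1.77 for Dmrtc1c1, -1.69 for Miip, -0.93 for Xlr3a, -0.77 for Dnmt3a and -0.64 for Xlr3b. All 24 genes with the most extreme differences in 2i were therefore further apart in 2i than in serum, or turned sign between media as 1700013H16Rik did, which their choice by the 2i values favours.

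Among genes of the methylation list and the genes the study names, the values were -1.59 for Tet3, -0.97 for Dppa3 and -0.51 for Mbd4, all 3 on chromosome 6, and 0.74 for Mbd1, 0.63 for Prdm14, 0.37 for Trim28, 0.31 for Mbd3 and 0.31 for Esrrb. Of 148 further named list members, 102 were called in the same contrast. J1 in 2i stood apart on chromosome 6 in all 3 libraries, and the part of that shift in these values was not tested.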

How the results depend on the processing

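With a 2-fold threshold beside the adjusted p, the counts fell to 1447 in 2i (583 higher, 864 lower), 820 in serum (485 higher, 335 lower) and 1470 between media (530 higher, 940 lower), fewer by construction. Without genes of chromosomes 6, 8 and 11, an alternative added after seeing the data, 2713 genes were lower in 2i, and 2683 without the shifted window of chromosome 7 as well. The 2i count was 7836 with the DESeq2 test, 7489 with at least 10 counts in every library, 7562 in the 6 libraries alone, 7382 with length offsets and 7116 to 7961 without 1 library. With at least 10 counts in every library, the medians were -0.45 for chromosome 6, 0.012 for chromosome 8 and -0.28 for chromosome 11. Without 1 library they ranged from -0.44 to -0.40, from 0.0105 to 0.056 and from -0.28 to -0.24. With 0 counts required in each J1 library, 0 genes were on in 3B3-3l alone.

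Same-numbered libraries did not deviate together (18 pairs, correlations -0.12 to 0.06, 0 over 0.1), so the numbers were not taken as pairs. With the replicate block, 7784 genes were called in 2i (3876 higher, 3908 lower), 5623 between media and 6383 in serum, and of the named genes only Uty lost its call (adjusted p = 0.067). Over all alternatives, the named genes kept direction and side of the threshold in 2448 cases, lost the call in 29, gained it in 5 and reversed in 0. At least 10 counts in every library left 6 called members of the 2-cell-like list, 7 of the Rhox and Xlr clusters, 12 of the Polycomb-bound factors and 1 of the Hox genes, since low genes were removed. Genes near the floor of 3 counts and nearly identical copies are the least certain, and transgene reads could not be separated from endogenous ones.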
